A study of Mus musculus with 5 samples.

Results

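The genes described here are 10 that carry out the last steps of cell division, namely Anln, Ect2, Racgap1, Prc1, Cit, Aurkb, Incenp, Cdca8, Birc5 and Cep55. They were chosen by symbol, as genes of cytokinesis and of the chromosomal passenger complex. Earlier results of these data were known when they were chosen. All 10 symbols were found among the 49671 genes of the deposited count table, and all 10 had enough reads to be tested. RNA was sequenced from whole hearts of C57BL6/J mice at postnatal day 2. Littermate hearts were pooled by genotype, into 3 CharmeWT pools of 9 hearts each and 2 CharmeKO pools of 3 hearts each. The CharmeKO allele holds a PolyA signal inserted in the locus of Charme, a long non-coding RNA of heart and skeletal muscle. The labels name no treatment, and an effect of genotype cannot be told apart from one of the number of hearts pooled. The comparison asked how the neonatal cardiac transcriptome differs between the genotypes.

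Cytokinesis splits the cell once the chromosomes have parted. Antiparallel microtubules are bundled into a central spindle, a ring of actin and myosin pinches the membrane, and the remaining bridge, the midbody, is cut by abscission. The chromosomal passenger complex moves from centromeres to the central spindle and times these steps. Around birth, mouse cardiomyocytes still divide, and during the first days of life most go through a last round in which the nucleus divides and cytokinesis fails, which leaves them binucleated.

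Between 16721055 and 21646378 counts per pool fell on genes, and the 10 genes together took between 0.0198% and 0.0565% of them. Charme itself had 39.3, 10.4 and 14.0 CPM (counts scaled by TMM to a common library size) in CharmeWT pools 1 to 3, and 4.04 and 3.54 CPM in CharmeKO pools 1 and 2. CharmeKO pool 1 stood apart, since 21.1% of its counts came from mitochondrial genes against 9.68% to 11.2% in the other pools. Salivary gland genes summed to 325 CPM in CharmeKO pool 1 and 24680 CPM in CharmeKO pool 2, against at most 0.152 CPM in any CharmeWT pool. Counts of calls are therefore also given without each CharmeKO pool, and these have their own background. Without CharmeKO pool 1 the test described below called 4.33% of genes in either direction and 3.06% upregulated, and without CharmeKO pool 2 it called 31.7% in either direction and 16.1% upregulated. Gene positions are on GRCm38 and span the whole gene. Levels are given as FPKM, the count scaled by TMM and divided by the length of all exons of the gene in kilobases. Errors are SD over 3 CharmeWT or 2 CharmeKO pools. No source says that each pool came from separate litters, so p-values measure the spread between these pools.

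All 10 genes had a higher fitted level in CharmeKO than in CharmeWT hearts, and 5 were called upregulated, Anln, Ect2, Prc1, Birc5 and Cep55. Calls required an adjusted p under 0.1 (edgeR's quasi-likelihood test, adjusted by Benjamini-Hochberg over 14880 genes) and a mean of at least 1 FPKM in at least 1 genotype. By the same rule 1.53% of the 14880 genes were called upregulated. The median log2 fold change, CharmeKO over CharmeWT, was 1.19 over the 10 genes and 0.02 over all genes tested. Racgap1 and Cdca8 were called in addition by the edgeR likelihood ratio test, which called 3.92% of genes upregulated, and by DESeq2, which called 4.33%. Both CharmeKO pools lay above every CharmeWT pool for 8 of the 10 genes, the exceptions being Cit and Incenp, and this order held for 17.8% of all genes tested. Among the CharmeWT pools, pool 2 had the highest FPKM of each of the 10 genes. In RNA from whole hearts, more cells of a dividing type and more RNA per cell cannot be told apart.

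**Figure D1:**
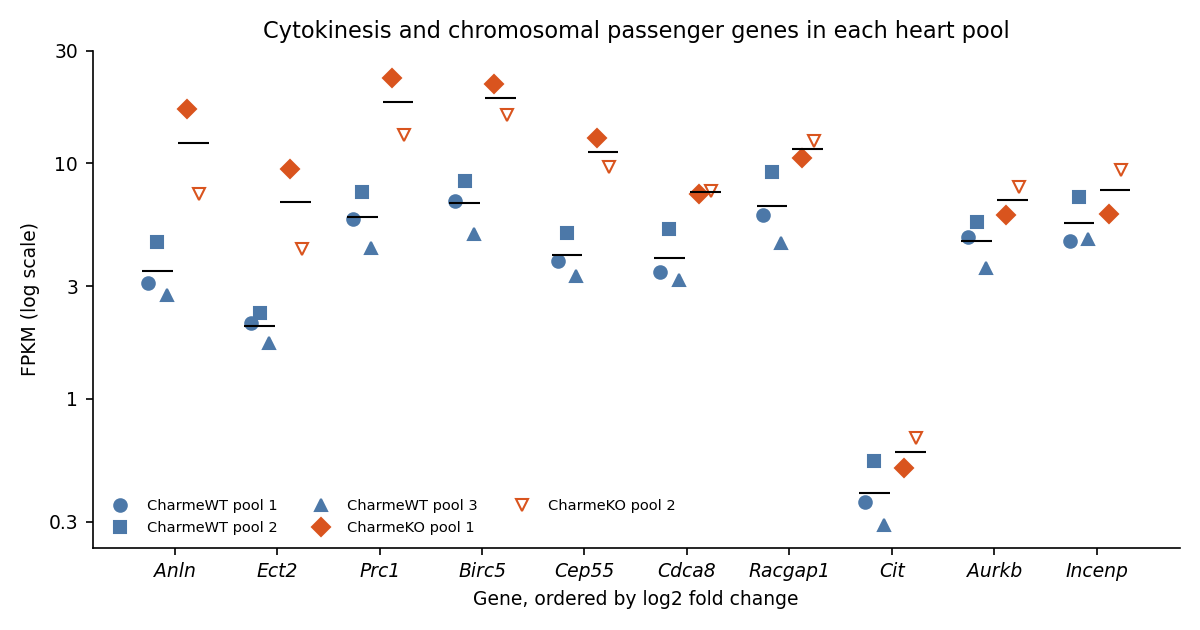
FPKM on a log scale (vertical axis) of each of the 10 genes (horizontal axis, ordered by log2 fold change) in the 3 CharmeWT pools (blue) and the 2 CharmeKO pools (orange), with a black line at each genotype's mean. CharmeKO pool 1 stands far above pool 2 for Anln and Ect2 and below it for Aurkb and Incenp, and Cit lies below 1 FPKM in every pool.

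Since the fitted differences of the genes shared a direction, the letters around their transcription start sites are shown first. Start site windows from 250 bases before to 50 bases after the start came from RefSeq on GRCm38.p6 and were found for 8 of the 10 genes, Aurkb and Incenp having no entry. The motif TTTGAA, a form of the cell cycle genes homology region that is known from promoters of late cell cycle genes, was present on either strand in 6 of the 8 genes, against 20.2% of the 27025 genes with a window. Birc5 and Cit had none. It was present in 14 of 18 other mitotic genes with a window and in 0 of 9 genes of the contractile ring. Within the 250 bases before the start alone, 3 of the 8 genes and 18.3% of all genes held it. Each line below gives, for 5 of these genes, 30 bases around a match near a start site, 5′ to 3′ on the strand of the gene, with TTTGAA or its reverse complement TTCAAA in capitals.
Anln (chr9:22389161-22389190, minus strand): tgaaaTTCAAAtTTTGAAcggccgtggtag
Ect2 (chr3:27153829-27153858, minus strand): gagagagcgactggattttTTTGAAtcgga
Racgap1 (chr15:99651634-99651663, minus strand): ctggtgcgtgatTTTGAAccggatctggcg
Prc1 (chr7:80294434-80294463, plus strand): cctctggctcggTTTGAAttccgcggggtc
Cep55 (chr19:38054996-38055025, plus strand): acagccgcgggaTTCAAActcccggaagcg

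Anln holds the motif on both strands with 1 base between the matches. A second motif, CCAAT, the letters bound by the trimeric factor NF-Y, was present on either strand in 4 of the 8 genes, Ect2, Racgap1, Prc1 and Cdca8, and in 41.1% of all genes. The GC box GGGCGG was present in 8 of 8 genes and in 38.2% of all genes. It was also present in 15 of 18 other mitotic genes and in 7 of 9 genes of the contractile ring. For CCAAT these numbers were 15 of 18 and 4 of 9. Of the related forms, TTCGAA was found in 0 of 8 genes and 1.8% of all genes, and TTTAAA in 1 of 8 genes, Birc5, and 14.9% of all genes. These 3 forms of the homology region differ in their central letters, so 1 stretch counts for only 1 of them. The lines below show the stretches with repeated or neighbouring matches, with the letters CCAAT, or their reverse complement ATTGG, in capitals beside the motif of the earlier lines. A match describes these letters only.
Ect2 (chr3:27153923-27153998, minus strand): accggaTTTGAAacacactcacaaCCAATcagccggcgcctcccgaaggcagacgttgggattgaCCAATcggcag
Prc1 (chr7:80294406-80294451, plus strand): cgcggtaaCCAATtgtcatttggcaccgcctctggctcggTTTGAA
Cdca8 (chr4:124936920-124937008, minus strand): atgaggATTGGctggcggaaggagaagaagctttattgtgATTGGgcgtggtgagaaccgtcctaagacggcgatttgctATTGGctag

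The chromosomal passenger complex is formed by the kinase Aurora B (Aurkb), the scaffold Incenp, and the targeting subunits borealin (Cdca8) and survivin (Birc5). In CharmeKO hearts Birc5 was upregulated, Cdca8 did not pass the threshold, and Aurkb and Incenp had the smallest fitted differences of the 10 genes. Birc5 (ENSMUSG00000017716, chr11:117849251-117855743) was at 6.92, 8.44 and 5.03 FPKM in CharmeWT pools 1 to 3, and at 21.6 and 16.0 FPKM in CharmeKO pools 1 and 2. The CharmeKO pools lay well clear of the CharmeWT pools, with means of 18.8 ± 3.95 against 6.80 ± 1.71 FPKM. Its log2 fold change was 1.47 (standard error 0.24), a 2.77-fold difference, with an adjusted p = 0.0392 in edgeR's quasi-likelihood test. Without CharmeWT pool 1 the adjusted p was 0.167, and without CharmeWT pool 3 it was 0.274, above the threshold in both cases, while the log2 fold change was 1.49 and 1.29.

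Cdca8 (ENSMUSG00000028873, chr4:124918465-124939311), which docks the complex on centromeres together with survivin, was at 3.44, 5.25 and 3.20 FPKM in CharmeWT and at 7.42 and 7.62 FPKM in CharmeKO pools. The CharmeKO pools nearly coincided, and both lay above every CharmeWT pool. The log2 fold change of 0.93 (standard error 0.24) had an adjusted p = 0.117 in the quasi-likelihood test, while the likelihood ratio test gave 0.0212 and DESeq2 gave 0.0196. It passed the threshold without CharmeWT pool 2 (adjusted p = 0.0750), without CharmeKO pool 1 (0.0598) and without CharmeKO pool 2 (0.0281), in each case in edgeR's quasi-likelihood test.

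Aurkb (ENSMUSG00000020897, chr11:69045647-69051664) was at 4.86, 5.63 and 3.57 FPKM in CharmeWT and at 6.04 and 7.91 FPKM in CharmeKO pools. CharmeKO pool 1 was only just above CharmeWT pool 2. The fitted log2 difference was 0.58 (standard error 0.25) and did not pass the threshold (adjusted p = 0.262, edgeR's quasi-likelihood test). Incenp (ENSMUSG00000024660, chr19:9872296-9899551) was at 4.68, 7.20 and 4.76 FPKM in CharmeWT and at 6.06 and 9.34 FPKM in CharmeKO pools. Here the genotypes overlapped, because CharmeKO pool 1 lay below CharmeWT pool 2. At a log2 fold change of 0.48 (standard error 0.26) the adjusted p was 0.354 in edgeR's quasi-likelihood test. The fold change was 0.76 without CharmeKO pool 1 and 0.12 without CharmeKO pool 2.

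Ratios between the RNA levels of subunits of this complex were taken per length, and protein was not measured. The size of a ratio depends on the length used, but its order across pools does not. The ratio of Birc5 to Incenp FPKM was 1.48, 1.17 and 1.06 in CharmeWT pools, and 3.57 and 1.72 in CharmeKO pools. For Cdca8 to Incenp the ratio was 0.736, 0.728 and 0.672 in CharmeWT pools, and 1.22 and 0.816 in CharmeKO pools. Both ratios were higher in each CharmeKO pool than in any CharmeWT pool, and both were higher in CharmeKO pool 1 than in pool 2. The ratio of Aurkb to Incenp, at 1.04, 0.781 and 0.751 in CharmeWT and 0.997 and 0.847 in CharmeKO pools, overlapped between the genotypes. These pairs were chosen after their values were seen and were not tested.

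At the central spindle, Prc1 cross-links the antiparallel microtubules, and Racgap1 pairs with the kinesin encoded by Kif23 to form centralspindlin. Ect2, the exchange factor that activates RhoA at the cell equator, is recruited by Racgap1. Prc1 and Ect2 were upregulated in CharmeKO hearts, and Racgap1 did not pass the threshold. Prc1 (ENSMUSG00000038943, chr7:80294450-80316259) was at 5.80, 7.52 and 4.37 FPKM in CharmeWT pools and at 23.1 and 13.1 FPKM in CharmeKO pools 1 and 2, with means of 5.90 ± 1.58 and 18.1 ± 7.02 FPKM. There was no overlap, and CharmeKO pool 1 was the higher of the pair. Its log2 fold change was 1.62 (standard error 0.28), a 3.07-fold difference, with an adjusted p = 0.0408 in edgeR's quasi-likelihood test. Exons on the other strand share 911 exonic bases in sum with Prc1, and 232 with Cdca8, and the counting was by strand.

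Ect2 (ENSMUSG00000027699, chr3:27097222-27153878), which holds both a TTTGAA downstream and another upstream of its start site, was at 2.09, 2.31 and 1.73 FPKM in CharmeWT and at 9.41 and 4.32 FPKM in CharmeKO pools. The CharmeWT pools were close together, at 2.04 ± 0.295 FPKM, and the CharmeKO pools were far apart, at 6.86 ± 3.60 FPKM, but above them. The log2 fold change was 1.74 (standard error 0.31), a 3.35-fold difference, with an adjusted p = 0.0435 in edgeR's quasi-likelihood test. Without CharmeKO pool 1 it was 1.08, and without CharmeKO pool 2 it was 2.20, and the gene was called in both cases. Prc1 and Ect2 both had an adjusted p = 0.167 without CharmeWT pool 1. Without CharmeWT pool 3 the adjusted p was 0.275 for Prc1 and 0.289 for Ect2, again in edgeR's quasi-likelihood test.

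Racgap1 (ENSMUSG00000023015, chr15:99620496-99651656) was at 6.04, 9.20 and 4.56 FPKM in CharmeWT and at 10.5 and 12.4 FPKM in CharmeKO pools. CharmeKO pool 1 was close to CharmeWT pool 2, and CharmeKO pool 2 was the higher of the CharmeKO pools, in contrast to Prc1 and Ect2. The log2 fold change of 0.80 (standard error 0.27) had an adjusted p = 0.18 in the quasi-likelihood test, while the likelihood ratio test gave 0.0914 and DESeq2 gave 0.0769. Without CharmeWT pool 2 it was 1.12, and the adjusted p was 0.0893 in edgeR's quasi-likelihood test. The ratio of Ect2 to Racgap1 FPKM was 0.347, 0.251 and 0.379 in CharmeWT pools, and 0.892 and 0.347 in CharmeKO pools. Thus only CharmeKO pool 1 lay outside the CharmeWT range for this pair. For Prc1 to Racgap1 the ratio was 0.960, 0.818 and 0.959 in CharmeWT pools, and 2.19 and 1.06 in CharmeKO pools. For Cep55, described below, the ratio to Racgap1 was 0.634, 0.551 and 0.726 in CharmeWT pools, and 1.21 and 0.772 in CharmeKO pools. For both Prc1 and Cep55 the ratio was higher in each CharmeKO pool than in any CharmeWT pool. With the length and GC correction described below, this no longer held for Cep55 to Racgap1. The corrected log2 differences of Cep55 and Racgap1 from the CharmeWT mean were 1.07 and 0.97 in CharmeKO pool 2. In CharmeWT pool 3 they were -0.26 and -0.53. The pairs were chosen after their values were seen and were not tested.

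Of the ring and its later remnant, the genes include the scaffold anillin (Anln), which ties actin, myosin, septins and RhoA together, and also citron kinase (Cit), which keeps the ring and midbody in order. Anln (ENSMUSG00000036777, chr9:22332012-22389188) was at 3.10, 4.64 and 2.76 FPKM in CharmeWT pools, and at 17.0 and 7.42 FPKM in CharmeKO pools 1 and 2. Both CharmeKO pools lay above the CharmeWT pools, and pool 1 was far above pool 2. Anln had the largest fitted difference of the 10 genes, 3.48-fold, or 1.80 on the log2 scale (standard error 0.33), and an adjusted p = 0.0470 in edgeR's quasi-likelihood test. It was 1.09 without CharmeKO pool 1 and 2.27 without CharmeKO pool 2, and was called in both cases. Without CharmeWT pool 1 the adjusted p in that test was 0.181, and without CharmeWT pool 3 it was 0.289.

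Cit (ENSMUSG00000029516, chr5:115845278-116008947) was the lowest of the genes, at 0.364, 0.541 and 0.290 FPKM in CharmeWT and at 0.509 and 0.680 FPKM in CharmeKO pools. These values rest on 123, 157 and 94 counts in CharmeWT and 118 and 249 counts in CharmeKO pools. The genotypes overlapped, since CharmeKO pool 1 lay below CharmeWT pool 2. At a log2 fold change of 0.59 (standard error 0.31) the adjusted p was 0.336 in edgeR's quasi-likelihood test. With a mean below 1 FPKM in both genotypes, Cit could not have been called by the FPKM rule, and dropping that rule did not change its call.

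Cep55, which gathers at the midbody and recruits the abscission machinery, is ENSMUSG00000024989 at chr19:38055011-38074423. It was at 3.83, 5.07 and 3.31 FPKM in CharmeWT and at 12.7 and 9.60 FPKM in CharmeKO pools. No CharmeKO value came near the CharmeWT values, with means of 11.2 ± 2.22 against 4.07 ± 0.903 FPKM. The log2 fold change was 1.46 (standard error 0.24), a 2.74-fold difference, with an adjusted p = 0.0404 in edgeR's quasi-likelihood test. It was 1.24 without CharmeKO pool 1 and 1.64 without CharmeKO pool 2, so that Cep55, like Birc5, moved less with the choice of CharmeKO pool than Anln and Ect2. Without CharmeWT pool 1 or CharmeWT pool 3 the adjusted p in that test was 0.167 and 0.275.

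**Figure D2:**
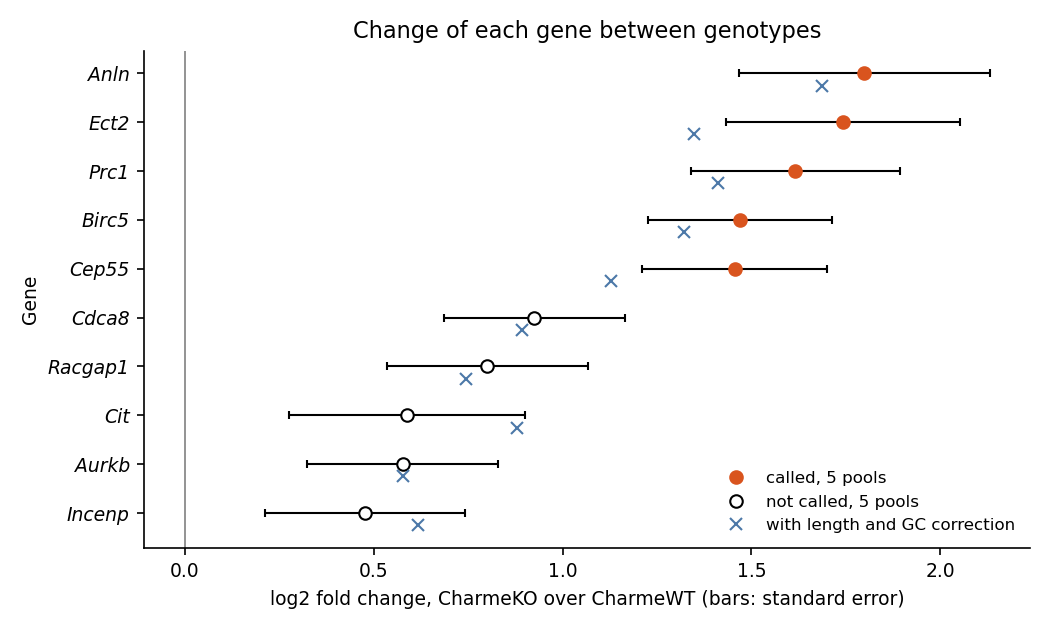
Log2 fold change, CharmeKO over CharmeWT (horizontal axis), of each gene (vertical axis) fitted to the 5 pools, with bars of 1 standard error and filled circles for the genes called upregulated. Crosses give the value after correcting each pool for gene length and GC content, which lowers Ect2 from 1.74 to 1.35 and raises Cit from 0.59 to 0.88.

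In the order of levels per length within CharmeWT hearts, Birc5 came first at 6.80 FPKM, followed by Racgap1 (6.60), Prc1 (5.90), Incenp (5.55), Aurkb (4.69), Cep55 (4.07), Cdca8 (3.96), Anln (3.50), Ect2 (2.04) and Cit (0.398). The pool values of neighbours in this order overlapped, except that Ect2 lay wholly below Anln and Cit wholly below Ect2. In CharmeKO hearts Anln moved from rank 8 to rank 3, while Aurkb moved from rank 5 to rank 8. The order depends on the length used. With the longest transcript in place of all exons, a choice made after the data were seen, Prc1 came first in CharmeWT at 13.3 FPKM and Birc5 came to rank 5 at 6.93 FPKM, and Ect2 and Cit were still the lowest.

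The CharmeKO pools differed from each other in a way that divided the 10 genes. Anln, Ect2 and Prc1 were higher in CharmeKO pool 1 than in pool 2, by 1.19, 1.12 and 0.81 in log2 CPM, and Birc5 and Cep55 by 0.43 and 0.41. Cdca8 differed by -0.04, Racgap1 by -0.24, Aurkb by -0.39, Cit by -0.41 and Incenp by -0.62. The genes higher in pool 1 were the 5 called genes, and apart from Racgap1 the other genes had a higher GC content than each of them. Measured on the longest transcript, GC content ran from 40.2% for Ect2 to 54.7% for Incenp. Across the 10 genes the difference between the CharmeKO pools followed GC content with Pearson's r = -0.864 and Spearman's rho = -0.855, as a description of genes that share the same libraries.

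The same relation ran through the libraries as a whole. Over 11546 genes with a mean of at least 1 FPKM, r was -0.504 and rho was -0.595, and the median difference was 0.44 in genes of at most 45.1% GC and -0.45 in genes of at least 54.7% GC. Between pairs of CharmeWT pools r was between -0.224 and 0.218. When each pool was corrected for its own dependence on length and GC content, the difference between the CharmeKO pools fell to 1.0 for Anln, 0.73 for Ect2 and 0.53 for Prc1, and Incenp came to -0.20. For Racgap1 it widened from -0.24 to -0.34. With this correction the same 5 genes were called, beside 1.53% of all genes called upregulated. The log2 fold changes ran from 0.58 for Aurkb to 1.69 for Anln, and both CharmeKO pools lay above every CharmeWT pool for 10 of the 10 genes, against 13.5% of all genes after the correction. The median over the 10 genes was then 1.01.

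**Figure D3:**
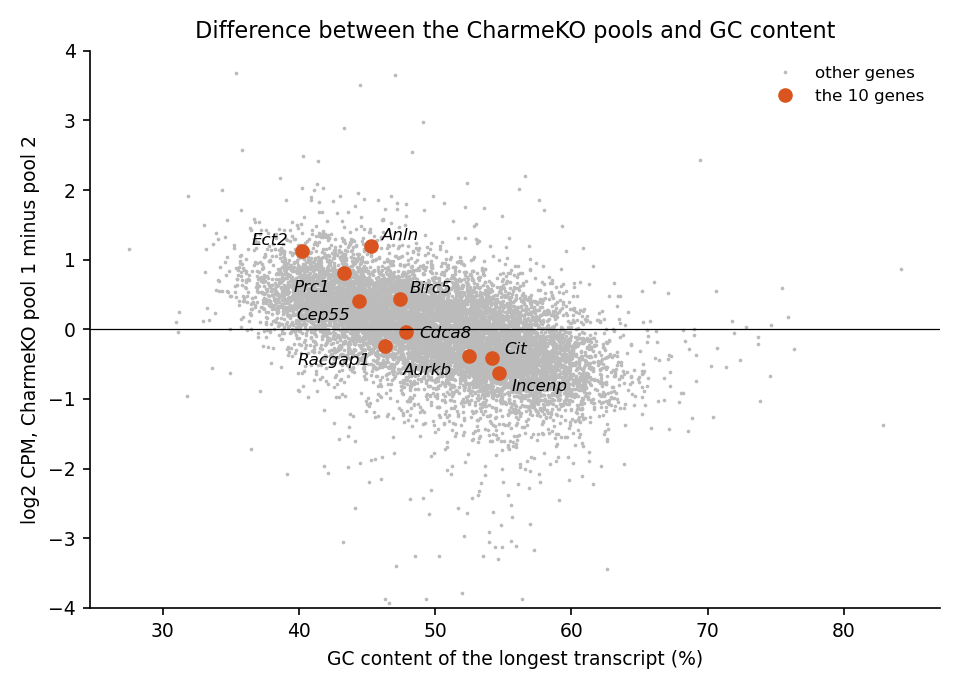
Difference in log2 CPM between CharmeKO pool 1 and pool 2 (vertical axis) against the GC content of the longest transcript in percent (horizontal axis), for the 10 genes (orange, named) and the other genes with a mean of at least 1 FPKM (grey). The cloud and the 10 genes both slope downward, the latter from Ect2 at 40.2% to Incenp at 54.7%. Ect2 (1.12) and Prc1 (0.81) lie above 0.44, the median of genes of at most 45.1% GC, and Cep55 (0.41) does not. Beyond the axis lie 29 genes.

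With each pool left out in turn, the fitted difference stayed above 0 for each of the 10 genes, and the number called ran from 0 to 7. No gene of the 10 was called without CharmeWT pool 1 or without CharmeWT pool 3, where 7 and 6 of them had an unadjusted p under 0.05 in edgeR's quasi-likelihood test. Over all genes that test then called 2 and 0 genes, with 2190 and 1315 at an unadjusted p under 0.05. The share of all genes called upregulated was 0.00685% and 0%. Without CharmeWT pool 2, the pool with the highest levels of these genes, 7 were called, against 1.02% of all genes called upregulated. Without CharmeKO pool 1, 6 were called, Cdca8 in addition to the 5, against 3.06% of all genes. Without CharmeKO pool 2 the same 6 were called, against 16.1% of all genes. A fit without 1 CharmeKO pool takes the remaining one to vary as the CharmeWT pools do. The medians over the 10 genes were 1.02 without CharmeKO pool 1 and 1.27 without CharmeKO pool 2.

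**Figure D4:**
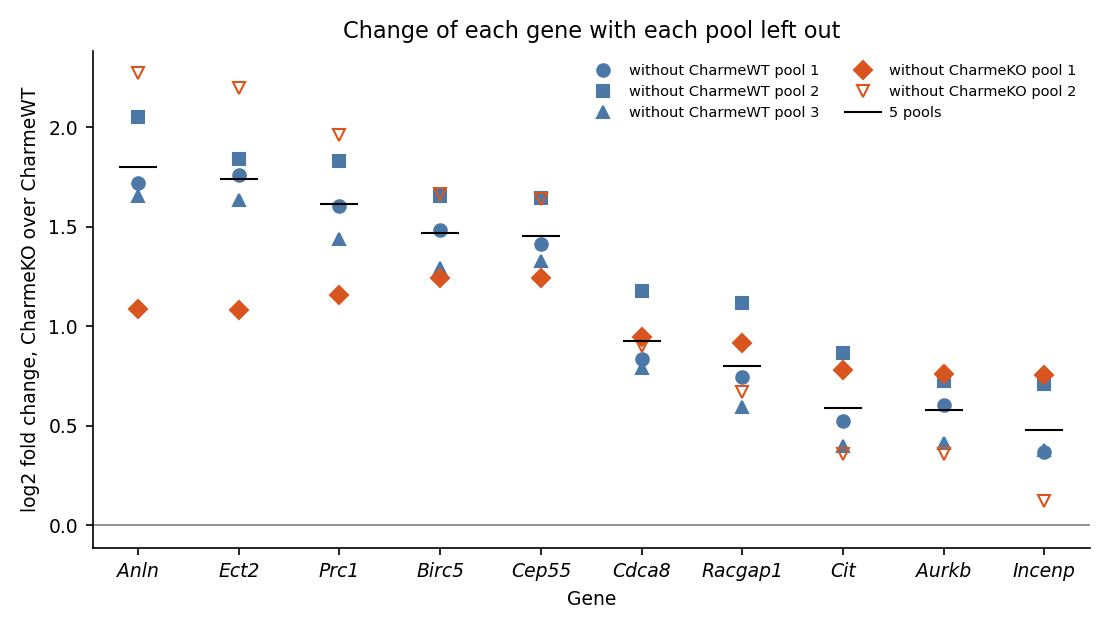
Log2 fold change, CharmeKO over CharmeWT (vertical axis), of each gene (horizontal axis) with each pool left out in turn, beside a black line for the fit of the 5 pools. Values spread from 1.09 to 2.27 for Anln and from 1.24 to 1.66 for Birc5, and they stay above 0 throughout.

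The partners of these genes at the central spindle and midbody were also higher. Of 7 listed, 5 were called upregulated and 0 downregulated, beside 1.53% of all genes called upregulated. The median log2 fold change of the list was 1.29, beside 0.02 over all genes. Kif20a, a kinesin that carries the passenger complex to the central spindle, was at 8.89, 12.2 and 6.55 FPKM in CharmeWT and at 33.1 and 25.2 FPKM in CharmeKO pools, without overlap, and its log2 fold change was 1.66 (adjusted p = 0.0343, edgeR's quasi-likelihood test). Kif23, the kinesin subunit of centralspindlin, went from a mean of 2.68 ± 0.495 to 6.58 ± 0.354 FPKM, with a log2 fold change of 1.29 (adjusted p = 0.0390, same test). That is a larger fitted difference than the 0.80 of its partner Racgap1, but the difference between them was not tested. Kif20b, Kif4 and Kif14 were called as well, at log2 fold changes of 1.55, 1.35 and 1.28. The kinase Plk1, which primes Ect2 recruitment, was at 1.02 (adjusted p = 0.144, edgeR's quasi-likelihood test) and was not called. In this list, as among the 10 genes, 0 were called without CharmeWT pool 1 or CharmeWT pool 3. Without CharmeKO pool 1 the list had 6 calls, against 3.06% of all genes, and without CharmeKO pool 2 it had 6, against 16.1%, all upregulated.

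Proteins that dock the passenger complex on centromeres, with the relatives of Aurora B, gave 3 upregulated and 0 downregulated of 7 tested, at a median of 1.11. Over all genes 1.53% were called upregulated. Those called were the kinase Bub1 and the shugoshins Sgo1 and Sgo2a, with log2 fold changes of 1.68, 1.29 and 1.31. Aurora A (Aurka), at 5.30, 8.01 and 4.18 FPKM in CharmeWT and 11.8 and 13.3 FPKM in CharmeKO pools, had a log2 fold change of 1.11 and an adjusted p = 0.10 in edgeR's quasi-likelihood test, just short of the threshold. Rcc2 was at -0.28 (adjusted p = 0.566, same test). Leaving out CharmeWT pool 1 or CharmeWT pool 3 gave 0 calls here, and leaving out CharmeKO pool 1 gave 5. Leaving out CharmeKO pool 2 gave 6, with Rcc2 then called downregulated, in a fit that called 31.7% of all genes.

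The list of the contractile ring held 16 genes, that is RhoA, its kinases, formins, non-muscle myosins and septins. By edgeR's quasi-likelihood test 0 of them were called in either direction. Over all 14880 genes that test called 227 upregulated and 78 downregulated, and 2767 had an unadjusted p under 0.05. Of the ring genes 3 had an unadjusted p under 0.05, and the median log2 fold change of the list was 0.03. The likelihood ratio test and DESeq2 called 1 gene each, the formin Diaph3, which was at 1.82, 1.71 and 1.34 FPKM in CharmeWT and at 3.60 and 2.62 FPKM in CharmeKO pools. Rhoa itself was at 37.5, 44.4 and 34.8 FPKM in CharmeWT and at 40.6 and 38.1 FPKM in CharmeKO pools, fully overlapping, and the fitted log2 difference was 0.02 (standard error 0.18). The light chain Myl9 was at 329, 821 and 359 FPKM in CharmeWT and at 937 and 862 FPKM in CharmeKO pools, where CharmeWT pool 2 nearly reached the CharmeKO pools (log2 fold change 0.84, adjusted p = 0.25, edgeR's quasi-likelihood test). Without CharmeWT pool 2 the list had 1 call, Myl9. It had 0 calls without CharmeKO pool 1. Without CharmeKO pool 2 it had 9 calls of 16, 5 upregulated and 4 downregulated, in a fit that called 31.7% of all genes.

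Abscission needs the ESCRT-III filaments that Cep55 recruits through Tsg101 and the protein encoded by Pdcd6ip. Of 18 such genes 0 were called by edgeR's quasi-likelihood test. In that test 2 had an unadjusted p under 0.05, beside 2767 of all 14880 genes. The median log2 fold change of the list was 0.04. The likelihood ratio test and DESeq2 each called Chmp4c, a subunit of the abscission checkpoint governed by Aurora B, at 1.69, 1.27 and 1.79 FPKM in CharmeWT and 2.99 and 2.34 FPKM in CharmeKO pools. Chmp4b, the most abundant of the list over the 5 pools, was at 82.4 FPKM on average in CharmeWT and 76.5 FPKM in CharmeKO pools, for a fitted log2 difference of -0.11 (standard error 0.17), and Tsg101 was at 0.26 (standard error 0.18). Pdcd6ip was at -0.52 (standard error 0.19), with 13.1, 14.9 and 14.5 FPKM in CharmeWT and 8.49 and 11.3 FPKM in CharmeKO pools. Both CharmeKO pools lay above every CharmeWT pool for 4 of the 18 genes and below for 6. Over all 14880 genes these orders held for 2654 and 2710. There were 0 calls without CharmeKO pool 1. Leaving out CharmeKO pool 2 gave 6 of 18, in both directions, a share near the 31.7% of all genes called in that fit. Genes of the ring and of ESCRT work in many cells outside division, whereas most of the 10 genes are known for levels that follow the cell cycle. Whether this bears on the levels measured here was not tested.

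**Figure D5:**
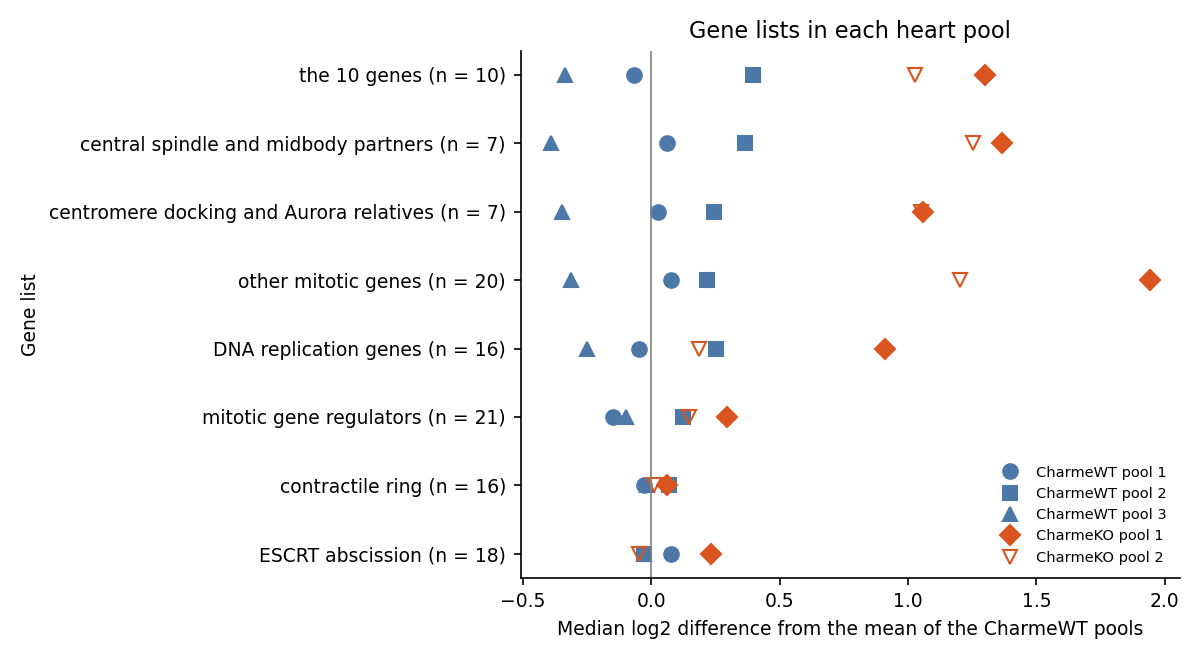
Median over the genes of each list (vertical axis, with the number of genes tested) of the log2 difference from the mean of the CharmeWT pools (horizontal axis), by pool. For the 10 genes the median was 1.30 in CharmeKO pool 1 and 1.03 in pool 2, and for the contractile ring it was 0.06 and 0.01.

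Other mitotic genes were higher as well. Of 20 such genes, cyclins, kinetochore proteins, condensins and spindle motors among them, 19 were called upregulated, the exception being Cdc20. Over all genes 1.53% were called upregulated. The median log2 fold change of the list was 1.58. Cyclin A2 (Ccna2) was at 16.2, 19.5 and 10.8 FPKM in CharmeWT and at 64.2 and 43.7 FPKM in CharmeKO pools (log2 fold change 1.80, adjusted p = 0.0336, edgeR's quasi-likelihood test). Ccnb2 and Ube2c, the other most abundant genes called in this list, had log2 fold changes of 1.17 and 1.24. The list's median by pool was 1.94 in CharmeKO pool 1 and 1.20 in pool 2, against 1.30 and 1.03 for the 10 genes. Without CharmeWT pool 1 or CharmeWT pool 3 this list had 0 calls, without CharmeWT pool 2 it had 18, and the replicate block together with the length and GC correction left 3. Without CharmeKO pool 1 it had 20 calls, against 3.06% of all genes called upregulated, and without CharmeKO pool 2 it had 19, against 16.1%. Whether the 10 genes differ from this list was not tested. The genes most like the 10 genes were sought by the Euclidean distance over the 5 pools between a gene's centred log2 CPM and the median of the 10 genes, among 11903 genes outside them with a mean of at least 1 FPKM in either genotype. The nearest were Bub1b, a spindle checkpoint kinase (distance 0.183), Tuba1c, an alpha-tubulin (0.188), Spag5, a spindle protein (0.202), Nek2, a centrosomal kinase (0.217), and Cep72, a centrosomal protein (0.233).

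The listed regulators of cell cycle promoters were 21, the E2f and Myb families, subunits of the MuvB core, pocket proteins, Foxm1 and NF-Y. By edgeR's quasi-likelihood test 0 were called. In that test 3 had an unadjusted p under 0.05, beside 2767 of all 14880 genes. The median log2 fold change of the list was 0.22. The likelihood ratio test called 0, and DESeq2 called 1, Nfya, lower in CharmeKO, at 5.56, 5.73 and 6.98 FPKM in CharmeWT and 3.58 and 4.39 FPKM in CharmeKO pools. Foxm1, which drives late cell cycle genes, was at 2.70, 4.70 and 2.73 FPKM in CharmeWT and at 4.81 and 6.01 FPKM in CharmeKO pools, where CharmeWT pool 2 almost reached CharmeKO pool 1 (log2 fold change 0.68, adjusted p = 0.234, edgeR's quasi-likelihood test). The most abundant of the list, Rbbp4, Nfyc and E2f4, had log2 fold changes of 0.31, 0.18 and -0.18. Leaving out CharmeKO pool 1 gave 0 calls. Leaving out CharmeKO pool 2 gave 6 of 21, in both directions, a share near the 31.7% of all genes called in that fit.

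Markers of the cells in the heart were summed in each pool beside these results. Of 7 cardiomyocyte markers 0 were called, none reaching an unadjusted p under 0.05, and their sum ran from 37760 to 48220 CPM in CharmeWT and from 39200 to 40740 CPM in CharmeKO pools. Fibroblast markers gave 0 calls of 8, with 1 at an unadjusted p under 0.05 and sums of 3987 to 4780 against 4647 to 5742 CPM. Endothelial markers gave 0 calls of 7, with 2 at an unadjusted p under 0.05 and sums of 927 to 1191 against 848 to 982 CPM. Macrophage markers gave 1 call of 7, Mrc1, and sums of 95.4 to 154 against 123 to 200 CPM. Mrc1 was also called with either CharmeKO pool left out, and lost its call with any 1 CharmeWT pool left out. Without CharmeKO pool 2, in the fit that called 31.7% of all genes, 2 cardiomyocyte, 2 fibroblast and 5 endothelial markers were called, and without CharmeKO pool 1 there was 1 such call, Ryr2, lower in CharmeKO. These calls are those of edgeR's quasi-likelihood test, in which 2767 of all 14880 genes had an unadjusted p under 0.05 with all pools. Of these markers DESeq2 called Myh6 lower and Postn and Mrc1 higher, and the likelihood ratio test called Postn and Mrc1 higher. Over all genes DESeq2 called 645 higher and 477 lower, and the likelihood ratio test 584 and 349. Log2 fold changes of the 7 cardiomyocyte markers ran from -0.65 to 0.67.

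Of 7 erythroid markers tested, 3 were called upregulated, the globin genes Hba-a1, Hba-a2 and Hbb-bt, beside 1.53% of all genes. The summed level of the erythroid markers was 869 to 1253 CPM in CharmeWT and 1615 to 2283 CPM in CharmeKO pools. Without CharmeKO pool 1, 2 were called (Hba-a1 and Hba-a2), and without CharmeKO pool 2, 5 were. Skeletal muscle markers, with 2 of 5 tested called (Mylpf and Myh8), summed to 5.14 to 6.28 CPM in CharmeWT and to 17.3 and 48.3 CPM in CharmeKO pools 1 and 2, and Myh4 was at 0 in all pools. Here 3 were called without CharmeKO pool 1 and 1, Mylpf, without CharmeKO pool 2. Without CharmeWT pool 1 or CharmeWT pool 3 neither list had a call (0), and without CharmeWT pool 2 the erythroid list had 0 and the skeletal muscle list 2. With all pools, the likelihood ratio test and DESeq2 each called 5 erythroid and 3 skeletal muscle markers upregulated, beside 3.92% and 4.33% of all genes. Of 6 salivary gland markers, 4 were at 0 in all CharmeWT pools, Bpifa2, Smgc, Prol1 and Dcpp2. Thymus and T cell markers were at most 3.03 CPM in sum in any pool, with Rag2 at 0 in all. Fitted without the salivary gland genes, the same 5 of the 10 genes were called. The part of the erythroid, skeletal muscle and salivary gland RNA in the levels of the 10 genes was not tested.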

How the data were processed

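Polyadenylated RNA of 3 CharmeWT and 2 CharmeKO pools of postnatal day 2 hearts was sequenced by the authors in paired-end reads of 150 nucleotides. The authors trimmed reads with Cutadapt and Trimmomatic, discarded those under 35 nucleotides, aligned to GRCm38 with STAR and counted by strand on Ensembl release 87. The deposited counts are raw, with no normalization, for 49671 genes, of which 49411 were matched to GENCODE M21 for position and length. FPKM was computed here from TMM-scaled counts and the length of all exons, in place of the authors' own FPKM table. The filter asked for 10 counts or more in 2 pools or more, and the 14880 genes passing it were tested with edgeR 4.0.16 in R 4.3.3, by the quasi-likelihood test, with Benjamini-Hochberg adjustment. Calls needed an adjusted p under 0.1 and a mean of at least 1 FPKM in at least 1 genotype. Standard errors were derived from the F statistic. Alternatives were DESeq2 1.42.0, the likelihood ratio test, the length and GC correction and the other settings of the closing section. That correction used linear fits on natural splines of 4 degrees of freedom. The script was tested on 3 simulated sets with 200 changed genes. With 3 pools against 2, an exact two-sided test cannot go below 0.1. Counting intervals were not used. The 10 genes, the gene lists and the tests were chosen with earlier results of these data known. Named are the 10 genes, Charme, from each list the 3 most abundant genes and those called, of which some are given only in counts, and the 5 genes nearest in pattern. Cdc20, Foxm1, Diaph3, Chmp4c, Nfya, Plk1 and Pdcd6ip, where outside this rule, and genes called only in an alternative, were named after their values were seen. CharmeWT pools were distinct libraries, since their counts differed by 17.5 to 29.9 times the sampling variance (chi-square per degree of freedom). By the same measure, CharmeKO pools 1 and 2 differed by 159 times, and pools of different genotype by 76.7 to 149 times. Of the 6 genes with a TTTGAA match, the stretch near the start site is printed for 5 and is not reported here for the remaining gene.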

Additional observations from a re-analysis of the deposited data

How the results depend on the processing

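The fitted difference of each of the 10 genes was above 0 in each of 17 alternative settings. Among these, dropping the FPKM rule and asking for an adjusted p under 0.05 changed only the rule for calls and kept the same fit. Over all genes 305 were called, against 933 by the likelihood ratio test, 1122 by DESeq2, 111 at an adjusted p under 0.05, 29 with the replicate block and the length and GC correction together, and 0 to 4607 with each pool left out. Of the 10 genes, 5 were called, against 7 by the likelihood ratio test, 7 by DESeq2, 0 with the block and correction together (lowest adjusted p 0.262, 9 of 10 at an unadjusted p under 0.05), and 0 to 7 with each pool left out; the cause was not tested, although a fit without a pool has fewer samples. Their median log2 fold change ran from 0.90 to 1.41. Anln, Ect2, Prc1, Birc5 and Cep55 were each called in 14 settings, Cdca8 in 5, Racgap1 in 3, and Cit, Aurkb and Incenp in 0. The labels do not say that pools of the same number share a litter, and only pools 1 and 2 have a partner. Their deviations correlated at 0.137 and 0.078. With 2 CharmeKO pools, the deviations from the CharmeKO mean are mirror images, so these values cannot decide whether the numbers mark pairs. For want of a label, the main fit did not take the numbers as pairs. With the replicate block alone 210 genes and 5 of the 10 were called, with a median of 1.05. The order of levels by the deposited FPKM values was not run. Fits without mitochondrial genes, which called the same 5, and the order by longest transcript were added after the data were seen. What depth limits is Cit, with 94 to 249 counts per pool.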

Other observations

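Genes of DNA replication are expressed earlier in the cell cycle than the 10 genes. Of 16 such genes 1 was called upregulated by edgeR's quasi-likelihood test, Rrm1, a subunit of ribonucleotide reductase, at 7.67, 8.50 and 5.98 FPKM in CharmeWT and 26.6 and 13.1 FPKM in CharmeKO pools (log2 fold change 1.43, adjusted p = 0.0525). The likelihood ratio test called 4, Pcna, Rrm1, Rrm2 and Tyms, and DESeq2 called 6. Without CharmeWT pool 1 or CharmeWT pool 3, 0 were called, and without CharmeWT pool 2, 2 were called. In the quasi-likelihood test 9 of the 16 had an unadjusted p under 0.05, beside 2767 of all 14880 genes. The median log2 fold change of the list was 0.59. The most abundant genes were Pcna, the replication clamp, at 0.86, Rrm2 at 0.83 and Mcm7, a helicase subunit, at 0.59. The median log2 difference from the CharmeWT mean was 0.91 in CharmeKO pool 1 and 0.19 in pool 2, beside 1.30 and 1.03 for the 10 genes. Pcna was at 31.0, 33.2 and 26.9 FPKM in CharmeWT pools, at 75.7 FPKM in CharmeKO pool 1 and at 34.8 FPKM in CharmeKO pool 2. Without CharmeKO pool 2 the list had 14 calls, in a fit that called 31.7% of all genes, and without CharmeKO pool 1 it had 1, in a fit that called 4.33%. Whether the list differs from the 10 genes was not tested.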
